A study of Mus musculus with 8 samples.

Results

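Genes of cholesterol and fatty acid synthesis, many of them known targets of the SREBP transcription factors, were followed with their regulators in microglia of mouse white and grey matter. The 33 members were taken by symbol from a count table of 51810 genes, and all 33 were found there. They comprised 5 regulators, 7 genes of the mevalonate arm, 11 of the sterol arm, 1 sterol carrier and 9 genes of the fatty acid arm. Wild type mice aged 4 or 21 months gave 4 groups of 2 libraries each, namely white matter at 4 months, grey matter at 4 months, white matter at 21 months and grey matter at 21 months. No treatment, transgene or deletion is named for any group. After myelin was removed on Percoll, cells were selected by magnetic beads for CD11b, an integrin chain that microglia share with other myeloid cells, and their polyadenylated RNA was sequenced. Because the labels give the corpus callosum as region for grey matter as well, white and grey matter are told apart by the sample titles and the tissue label. No label says whether libraries of 1 group are from different animals, so p-values measure the spread between these libraries, which may be technical.

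SREBP-1 and SREBP-2 are made as precursors in the membrane of the endoplasmic reticulum. When sterols are scarce, the escort protein SCAP carries them to the Golgi, where they are cut and released to switch on the genes of sterol and fatty acid synthesis. When sterols are plentiful, INSIG proteins hold SCAP back, and because Insig1 is itself a target of the SREBPs, the circuit includes a brake. In the brain, cholesterol is made locally, oligodendrocytes make large amounts of it for myelin, and microglia take up lipid when they clear myelin debris.

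The 250 bases before the start site of 4 members are shown because Insig1 was the only member called in a comparison made on its own libraries, Msmo1 and Srebf2 stood higher in white matter at 21 months than in every grey matter library, and Hmgcs1 held the one match to a sterol regulatory element. This choice was made with the values known. The sequences come from RefSeq on GRCm38.p6 and run 5' to 3' on the gene's strand, with capitals at matches on either strand to TCACNCCAC, the core of the sterol regulatory element, to CCAAT, the NF-Y box, and to CACGTG, an E-box.
Insig1, chr5:28071162-28071411, plus strand: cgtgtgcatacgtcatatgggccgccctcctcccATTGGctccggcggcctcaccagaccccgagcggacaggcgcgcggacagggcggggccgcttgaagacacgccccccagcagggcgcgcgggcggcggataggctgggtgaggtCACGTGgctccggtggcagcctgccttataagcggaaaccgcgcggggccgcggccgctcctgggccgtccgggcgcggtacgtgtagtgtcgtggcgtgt
Hmgcs1, chr13:119690101-119690350, plus strand: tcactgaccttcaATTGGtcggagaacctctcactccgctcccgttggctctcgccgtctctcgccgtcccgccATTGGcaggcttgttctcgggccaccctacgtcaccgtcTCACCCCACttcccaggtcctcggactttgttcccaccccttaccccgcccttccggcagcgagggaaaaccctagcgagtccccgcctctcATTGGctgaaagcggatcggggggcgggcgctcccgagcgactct
Msmo1, chr8:64733579-64733828, minus strand: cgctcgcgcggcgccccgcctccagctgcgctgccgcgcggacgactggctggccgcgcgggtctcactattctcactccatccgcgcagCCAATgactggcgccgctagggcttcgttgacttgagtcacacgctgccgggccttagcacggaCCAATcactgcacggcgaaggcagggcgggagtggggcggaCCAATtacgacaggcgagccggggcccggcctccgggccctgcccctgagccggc
Srebf2, chr15:82147019-82147268, plus strand: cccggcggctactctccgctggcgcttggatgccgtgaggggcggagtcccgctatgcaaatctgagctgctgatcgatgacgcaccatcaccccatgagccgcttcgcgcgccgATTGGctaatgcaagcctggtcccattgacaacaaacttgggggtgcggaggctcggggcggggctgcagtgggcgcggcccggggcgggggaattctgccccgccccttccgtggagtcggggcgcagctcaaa

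RefSeq promoters were matched by symbol for 26 of the 33 members. The letters TCACNCCAC were present for 1 of these 26 members, Hmgcs1, or 2.94% of the members' 34 promoters, and in 1.05% of all 32851 promoters. CCAAT was present for 20 members, and 61.8% of the members' promoters held it against 33.8% of all promoters. CACGTG was present for 5 members, Dhcr7, Hsd17b7, Insig1, Sc5d and Scap, and 14.7% of the members' promoters held it against 6.02% of all promoters. No matches overlap in the 4 sequences shown. A match describes letters only, and the absence of a match says only that these letters are not in this window.

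Library totals ran from 3273258 to 6315782 counts. Levels are given as CPM, the usual count rate relative to library size, after TMM scaling, and are compared between libraries and not between genes. All 10 microglia markers were detected in each library, and their summed level ran from 11966 to 18193 CPM in 7 libraries. One library differed from these. The first of 4-month white matter held 3023 CPM of microglia markers and 69073 CPM of 16 oligodendrocyte markers such as Mbp, against 209 to 864 CPM of the latter in the other 7 libraries. Results that rest on this library are given with and without it.

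In that library the members were high nearly throughout. The 33 members summed to 10958 CPM there, against 895 CPM in the second 4-month white matter library and 619.6 to 1004 CPM across the other 7 libraries. Leaving out Scd2, a stearoyl-CoA desaturase abundant in brain, the sums were 3425 CPM and 692 CPM. The first library exceeded its partner for 32 of 33 members, with a median ratio of 4.08, where the median over 16141 genes was 0.918. It exceeded its partner more than 3-fold for 72.7% of the members and for 15.1% of all these genes, and it was the highest of all 8 libraries for 30 of the 33 members and for 5124 of the 16141 genes. The fatty acid arm had the highest median ratio, 7.32, with Scd2 at 37.2, Scd1 at 19.8 and fatty acid synthase, Fasn, at 12.9. Dhcr7, which makes cholesterol from its last precursor, had a ratio of 10.2, and Sqle, the squalene epoxidase that precedes ring closure, one of 6.55. For Fdps the ratio of 30.4 rested on 21 counts against 1 (95% exact counting interval 4.89 to 1258), counting error only. The 3 members not highest there were Insig2, at a ratio of 0.53, Stard4, at 1.20, and Fads2, at 1.32. The 16 oligodendrocyte markers summed to 69073 CPM in the first library and 864 CPM in its partner. The part of oligodendrocyte RNA in these ratios was not tested.

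**Figure D1:**
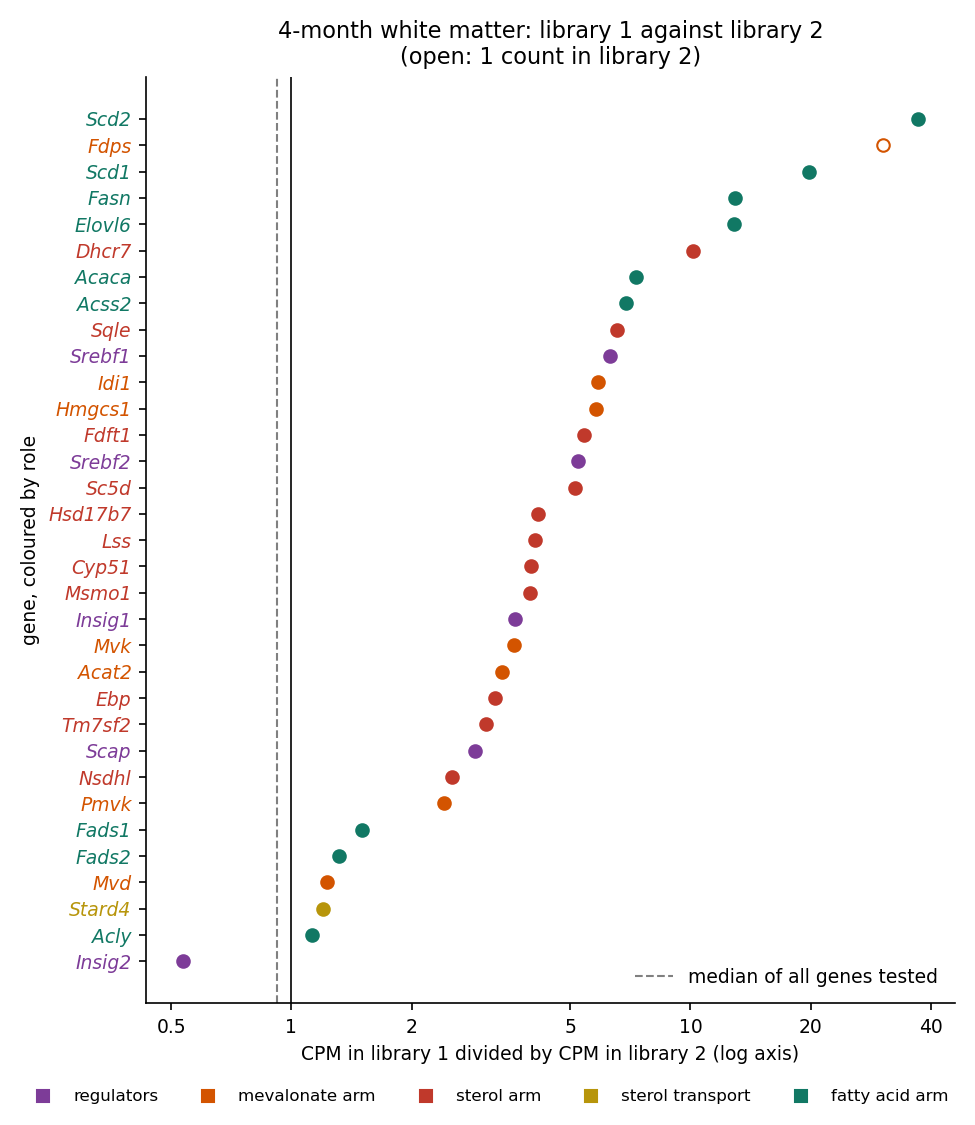
CPM in the first divided by CPM in the second 4-month white matter library for each of the 33 members, on a log axis, coloured by role; each point is 1 gene, the dashed line is the median of all genes tested (0.918), and the open point is Fdps, with 1 count in the second library. All points but Insig2 (0.53) lie right of 1, and Scd2 lies farthest at 37.2.

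At 21 months most members stood higher in white than in grey matter, and Insig1 was the one that passed a test. It was measured at 72.1 and 57.4 CPM in the white matter libraries and at 26.9 and 29.0 CPM in the grey matter libraries (64.8 ± 10.4 against 28.0 ± 1.48, SD, n = 2 each). The groups did not overlap, and at 4 months Insig1 stood at 125 and 34.4 CPM in white and 39.9 and 21.6 CPM in grey matter, so the 21-month white matter values exceeded all others but the first 4-month white matter library. Fitted on the 4 libraries of 21 months alone, Insig1 rose in white matter by a log2 fold change of 1.20 ± 0.21 (SE; edgeR adjusted p = 0.018). It was the 1 member called of 31 that passed the filter on low counts, where 0.985% of all 14717 genes were called higher, and no member was called lower, where 0.591% of genes were. Fdps and Mvk did not pass that filter. On simulated data this edgeR fit made more false calls than its nominal rate, a limit on the Insig1 call. DESeq2 on the same 4 libraries also called Insig1 and no other member (log2 fold change 1.20, adjusted p = 0.00436), where it called 2.13% of all genes. The call was lost when either grey matter library was left out, with adjusted p = 0.217 without the first and 0.0849 without the second, and the log2 fold change was then 1.15 and 1.25.

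In the fit of all 8 libraries, which share 1 estimate of the spread, no member was called in this comparison and 0% of all genes were. At an unadjusted p under 0.05, 0 members passed where 2.35% of all genes did, and DESeq2 on all 8 libraries called 0 members and 0.333% of genes. The Insig1 estimate there was 1.21 ± 0.61 (SE; edgeR adjusted p = 0.99998). Without the first 4-month white matter library, 0 members were called where 0.109% of 17509 genes were, 6 members had an unadjusted p under 0.05 (5.91% of genes did), and Insig1 was at 1.21 ± 0.31 (SE; edgeR adjusted p = 0.334). The estimate was alike in the 3 fits and its standard error was largest with all 8 libraries.

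Across the members, 27 of the 31 tested had a log2 fold change above 0 in the 21-month libraries, with a median of 0.51, where 50.8% of all genes lay above 0 and their median was 0.01. In the fit of all 8 libraries, 28 of 33 lay above 0 with a median of 0.53. In 18 of 33 members (54.5%) both white matter libraries exceeded both grey matter libraries, against 20.9% of all genes, and in 1, Acat2, both were lower, against 19.5% of all genes. Summed over the members, the white matter libraries held 839 and 1004 CPM and the grey matter libraries 619.6 and 675 CPM. Of the 31 members, 12 had an unadjusted p under 0.05, where 11.4% of all genes did, and all but Insig1 missed the threshold after adjustment. The median was 0.33 without the second 21-month white matter library. In these bulk samples a change in the share of cells of a type and a change in RNA per cell cannot be told apart.

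**Figure D2:**
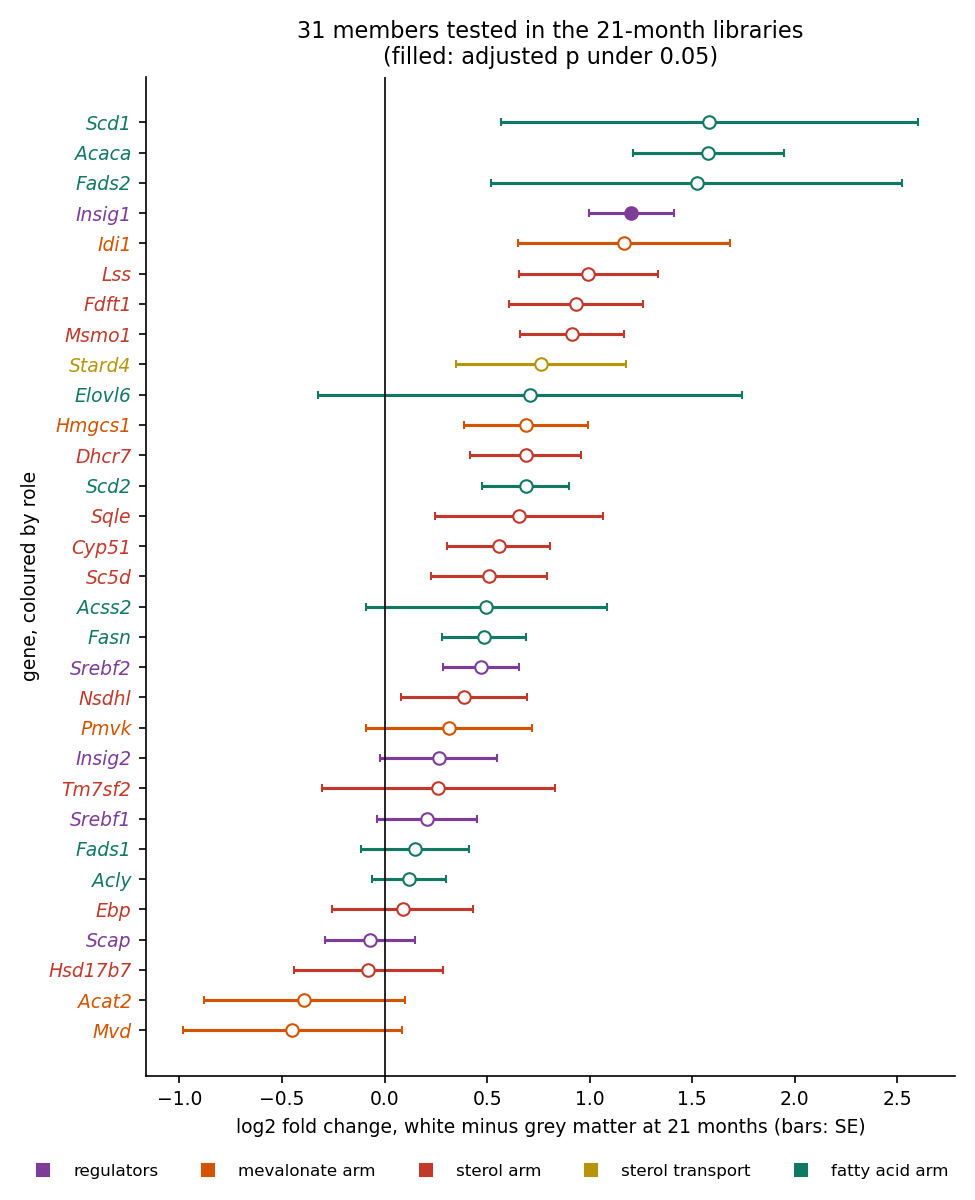
Log2 fold change of white minus grey matter at 21 months for the 31 members tested, from the fit of the 4 libraries of that age, with standard errors as bars and colour by role; the filled point has an adjusted p under 0.05. Insig1 (1.20) is the one filled point, and 27 of 31 points lie right of 0.

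Besides Insig1, no regulator was called. Srebf2, which encodes SREBP-2, the main activator of sterol genes, was at 58.7 and 60.6 CPM in white and 44.8 and 40.5 CPM in grey matter at 21 months. These values did not overlap, and the log2 fold change of 0.47 ± 0.18 (SE) did not pass the test (edgeR adjusted p = 0.343). Srebf1, which encodes SREBP-1, was at 27.2 and 38.5 CPM in white and 26.9 and 29.6 CPM in grey matter, so the groups overlapped. Its log2 fold change was 0.21 ± 0.24 (SE; edgeR adjusted p = 0.846) and was -0.06 without the second white matter library. Scap, the escort, and Insig2, the second retention protein, had log2 fold changes of -0.07 and 0.26. The 5 regulators had a median of 0.26, with 4 above 0. That median was 0.42 without the first and 0.10 without the second white matter library.

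In the mevalonate arm, which builds isoprenoid units from acetyl-CoA, 3 of 5 tested genes were above 0 with a median of 0.31. Without the first or the second white matter library 3 of the 6 genes then tested were, with medians of -0.09 and -0.03. Hmgcs1, the HMG-CoA synthase, was at 20.8 and 18.1 CPM in white and 10.7 and 13.4 CPM in grey matter. Idi1, the isopentenyl diphosphate isomerase, was at 5.44 and 6.95 CPM in white and 2.18 and 3.35 CPM in grey matter. Neither pair of groups overlapped, and the adjusted p values were 0.419 and 0.424 (edgeR). Acat2, the acetyl-CoA acetyltransferase at the head of the route, went the other way, at 3.31 and 4.47 CPM in white and 5.35 and 4.75 CPM in grey matter (log2 fold change -0.39 ± 0.49, SE; edgeR adjusted p = 0.860). These values came from 14 and 18 counts in white and 27 and 17 counts in grey matter. Mvk, mevalonate kinase, reached 7.54 CPM (27 counts) in the second 21-month grey matter library against 1.78 CPM (9 counts) in the first, so its grey matter mean rested on 1 library.

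In the sterol arm, which makes squalene and turns it into cholesterol, 10 of 11 genes were above 0 with a median of 0.56, and none was called. Msmo1, the sterol C4 methyl oxidase, was at 31.2 and 28.3 CPM in white and 16.2 and 15.1 CPM in grey matter (log2 fold change 0.91 ± 0.25, SE; edgeR adjusted p = 0.137). Both 21-month white matter values of Msmo1 were also above both 4-month grey matter values, 27.0 and 16.1 CPM. Sqle was at 9.93 and 12.2 CPM in white and 8.91 and 4.75 CPM in grey matter, without overlap (0.66 ± 0.41, SE; edgeR adjusted p = 0.637). Lss, the lanosterol synthase that closes the rings, and Fdft1, the squalene synthase, had log2 fold changes of 0.99 and 0.93 with adjusted p values of 0.255 and 0.271 (edgeR). Hsd17b7 was the gene of this arm below 0, at -0.08. Stard4, a carrier of cholesterol between membranes, was at 15.8 and 11.9 CPM in white and 10.9 and 5.02 CPM in grey matter (0.76 ± 0.41, SE; edgeR adjusted p = 0.561).

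In the fatty acid arm 9 of 9 genes were above 0 with a median of 0.69, and without the second white matter library 4 of 9 were, with a median of -0.29. Acaca, the acetyl-CoA carboxylase that commits carbon to fatty acids, was at 21.5 and 18.1 CPM in white and 4.75 and 8.65 CPM in grey matter. The groups did not overlap, and its log2 fold change of 1.58 ± 0.37 (SE) missed the threshold (edgeR adjusted p = 0.0727). Scd2 was at 131 and 196 CPM in white and 88.5 and 113 CPM in grey matter (0.69 ± 0.21, SE; edgeR adjusted p = 0.201). Fasn was at 48.7 and 43.5 CPM in white and 34.1 and 31.3 CPM in grey matter (edgeR adjusted p = 0.394).

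A few genes of this arm were split between the 2 white matter libraries of 21 months. Scd1, a stearoyl-CoA desaturase, was at 6.15 CPM in the first and 41.2 CPM in the second, with 7.72 and 7.82 CPM in grey matter. Elovl6, a fatty acid elongase, was at 1.18 and 13.2 CPM in the same white matter libraries. Fads2, a desaturase of polyunsaturated fatty acids, was at 1.18 and 12.7 CPM there, with 1.98 and 2.79 CPM in grey matter. In the first white matter library Elovl6 and Fads2 had 5 counts each. The Scd1 log2 fold change of 1.58 ± 1.02 (SE; edgeR adjusted p = 0.706) was -0.34 without the second library. Without the first library, 4 members were called higher (Insig1, Scd1, Scd2 and Fads2), where 2.06% of all genes were. The second white matter library held 9423 CPM of 10 choroid plexus and ependyma markers, of which Ttr made 9006 CPM, and the first 311 CPM. The part of that RNA in the split was not tested.

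Other cell markers also differed between the regions at 21 months. The 12 neutrophil markers summed to 998 and 557 CPM in white and 2997 and 2705 CPM in grey matter, and the 10 monocyte markers to 222 and 187 CPM against 611 and 435 CPM. The 10 markers of border-associated macrophages summed to 32.9 and 78.0 CPM against 126 and 97.7 CPM, and the 10 astrocyte markers to 84.0 and 154 CPM against 243 and 213 CPM. The oligodendrocyte markers summed to 357 and 344 CPM in white and 242 and 346 CPM in grey matter, so these overlapped, and the microglia markers to 12102 and 12059 CPM against 11966 and 14395 CPM. The part of these cells in the members' values was not tested.

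**Figure D3:**
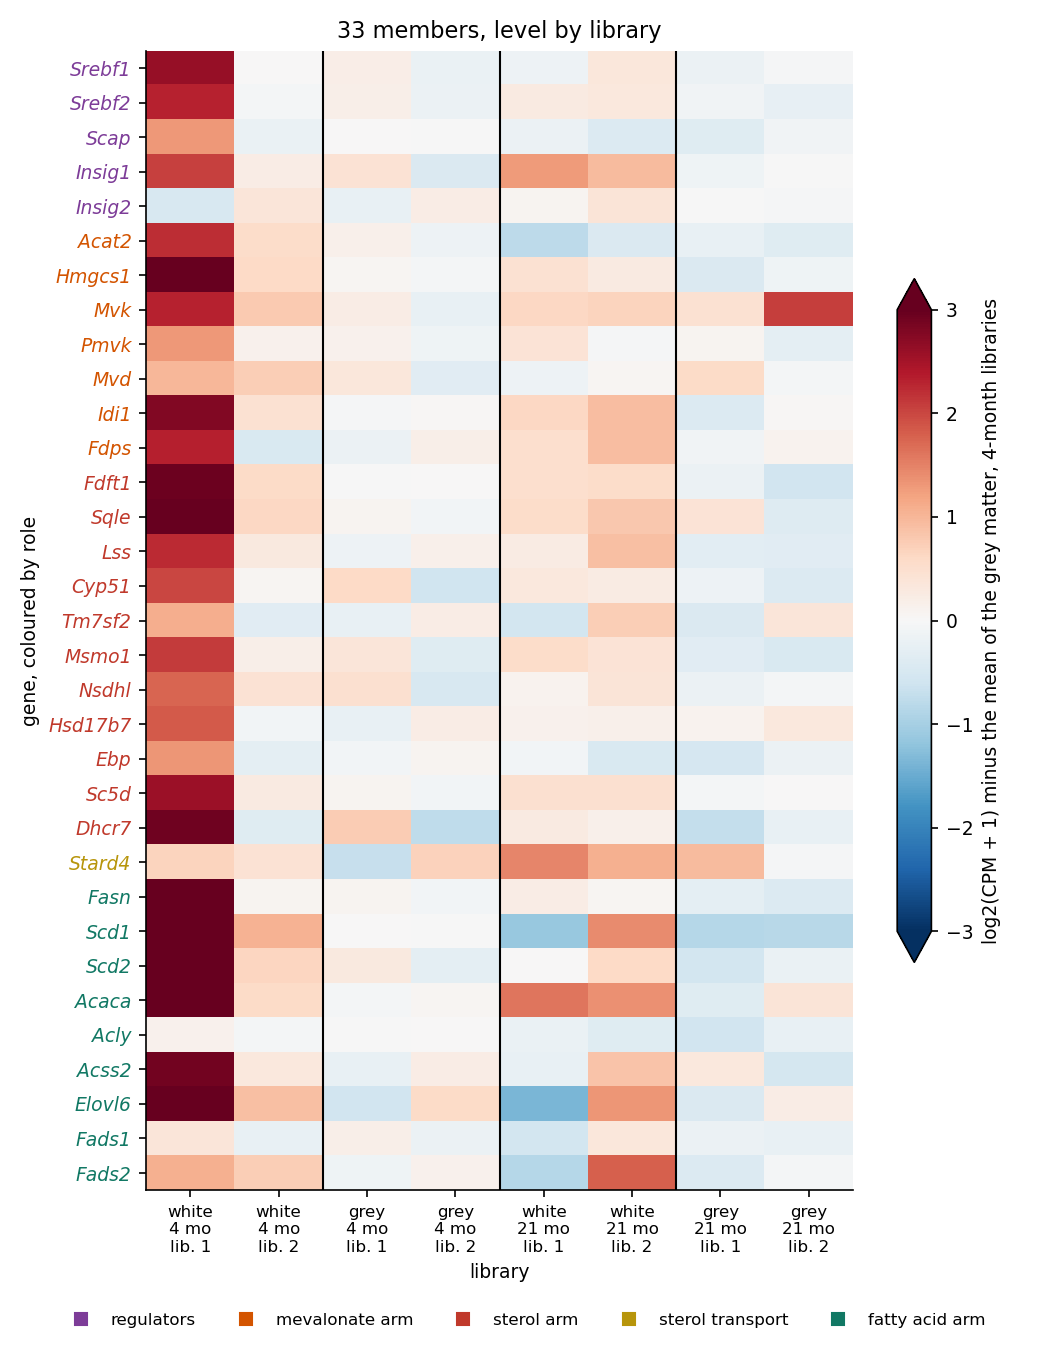
Level of the 33 members (rows, grouped and coloured by role) in each of the 8 libraries (columns), as log2(CPM + 1) minus the mean of the 4-month grey matter libraries; red is higher, blue lower, and colours are capped at 3. The first 4-month white matter library is dark red for most members, and Insig1 and Acaca are red in both 21-month white matter libraries while Scd1, Elovl6 and Fads2 are blue in the first and red in the second.

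Setting aside the first 4-month white matter library, both 21-month white matter libraries exceeded all 5 others for 8 of 33 members (24.2%), against 7.91% of all genes. These were the regulators Srebf2 and Insig1, Idi1 and Fdps of the mevalonate arm, Msmo1 and Sc5d of the sterol arm, Stard4 and Acaca. Fdps rested on few counts, 6 and 9 in 21-month white matter and 1 to 5 in the 5 others. Acat2 was lower in both than in all 5 others, as were 6.53% of all genes. It had 14 and 18 counts in 21-month white matter, and the closest of the 5 others, the second 21-month grey matter library, had 17. Among the 7 libraries the highest level of a member was in the second 21-month white matter library for 13 genes, in the first for 7 and in the second 4-month white matter library for 5. The 13 include the split genes Scd1, Elovl6 and Fads2, and the share over all genes was not computed for this tally. The first 21-month grey matter library was the highest for 0 members.

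**Figure D4:**
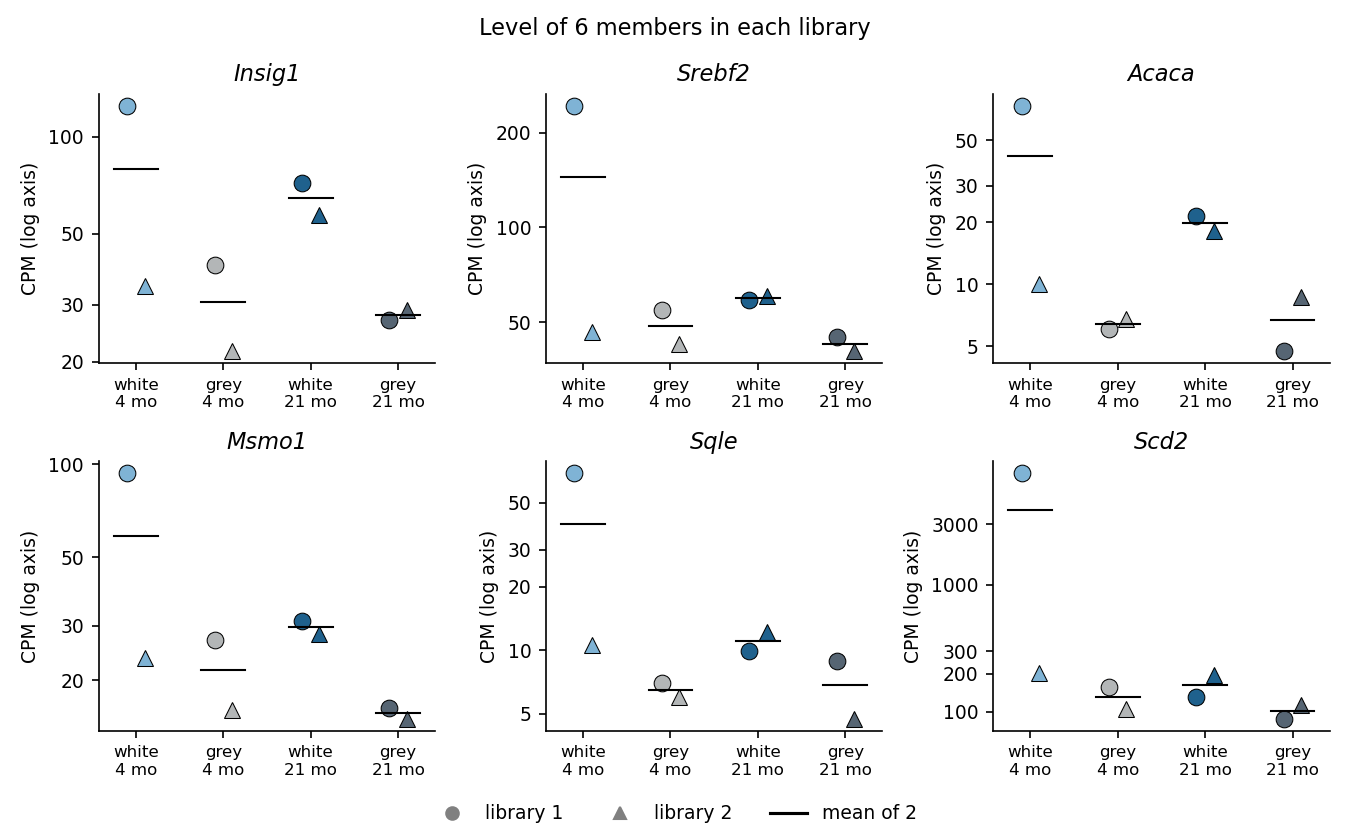
CPM (log axes that differ between panels) of Insig1, Srebf2, Acaca, Msmo1, Sqle and Scd2 in each library, by group; circles are the first and triangles the second library, and lines are means of 2. In each panel the circle of 4-month white matter is the highest point, and the 2 white matter points at 21 months lie above the 2 grey matter points of that age.

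Of 25 other genes of the pathway 22 were tested in the 21-month libraries, and 16 of these were above 0 with a median of 0.14, where 50.8% of all genes lay above 0. None was called, where 0.985% of all genes were called higher. Without the second white matter library 12 of 24 were above 0, with a median of 0.01, and the median was 0.06 without the first grey matter library. Of 12 tested receptors and targets of LXR, the nuclear receptors that sense oxysterols, 10 were above 0 with a median of 0.35, and 1 rose in the edgeR fit. This was Apoe, the lipoprotein of brain cholesterol transport, at 4468 and 3159 CPM in white and 272 and 247 CPM in grey matter (log2 fold change 3.87 ± 0.23, SE; edgeR adjusted p = 5.7e-05). DESeq2 on the same libraries called 2 of the list higher, Apoe and Ch25h, a cholesterol hydroxylase, where it called 1.3% of all genes higher. The edgeR calls of this list depended on the library left out, and each such fit leaves a single library in a group. Apoe alone was called when the first white matter library or either grey matter library was left out, so Ch25h, Npc2 and Plin2 were not. Without the second white matter library edgeR called 4 higher, Apoe, Ch25h, Npc2 and Plin2, where 1.66% of all genes were.

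At 4 months the comparison of white with grey matter turned on the first white matter library. With it, 32 of 33 members lay above 0 with a median log2 fold change of 1.63, where the median of all genes was 0.01. None was called, as were 0% of genes, although 15 of 33 members had an unadjusted p under 0.05, where 8.91% of genes did. DESeq2 called 3 members higher, Fasn, Scd1 and Scd2, where it called 2.86% of genes higher. Fasn was at 577 and 44.7 CPM in white and 44.3 and 39.7 CPM in grey matter, and Scd1 at 621 and 31.4 CPM in white and 14.8 CPM in both grey matter libraries. Without a filter on low counts edgeR called 11 members higher, where it called 3.04% of genes higher. Without the second white matter library 24 members were called higher, where 11.6% of genes were. Without the first library 23 of 33 members lay above 0 with a median of 0.31, 0 members had an unadjusted p under 0.05 (4.45% of genes did), and 0 were called, as were 0% of genes. Both white matter libraries exceeded both grey matter libraries for 17 members, against 13.4% of all genes, and 0 members were lower in both, against 15.5%. Judged by the second white matter library alone, 18 members were higher than both grey matter libraries, against 31.3% of all genes, and 6 were lower, against 32.1%, namely Scap, Fdps, Tm7sf2, Ebp, Acly and Fads1.

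Single members showed the same dependence at 4 months. Scd2 was at 7533 and 203 CPM in white and 158 and 105 CPM in grey matter, with a log2 fold change of 4.88 when the first white matter library was kept and 0.64 when it was left out. Sqle was at 69.0 and 10.5 CPM in white and 6.98 and 6.03 CPM in grey matter (2.60 and 0.71). Srebf1 was at 192 and 30.6 CPM in white and 35.2 and 26.1 CPM in grey matter (1.86 and 0.02). Srebf2 was at 243 and 46.7 CPM in white and 54.8 and 42.6 CPM in grey matter, and its sign changed (1.57 and -0.04). Insig1 went from 1.37 to 0.18. The second white matter library thus lay within the grey matter range for the 3 regulators and above it for Scd2 and Sqle. A single library is left in that group, and it is assumed to vary like the others. That library held 5558 CPM of the 10 choroid plexus and ependyma markers, against 187 and 28.5 CPM in 4-month grey matter. Its oligodendrocyte markers summed to 864 CPM, against 834 and 209 CPM in 4-month grey matter. The part of these cells in the fits without the first library was not tested.

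Between 4 and 21 months in white matter the direction of the members' median depended on the same library. With all 8 libraries 3 of 33 members lay above 0 with a median of -1.09, and 0 were called, as were 0% of genes, while 7 had an unadjusted p under 0.05 (8.1% of genes). DESeq2 called 3 members lower, Acat2, Scd1 and Scd2, where it called 1.93% of genes lower. Without a filter on low counts edgeR called 6 members lower, where it called 2.41% of genes lower. Without the first 4-month white matter library 21 of 33 lay above 0 with a median of 0.09, and 0 were called where 0.00571% of genes were, with 2 members at an unadjusted p under 0.05 (3.84% of genes). Without the second instead, 22 members were called lower, where 12.3% of genes were. Scd2 had a log2 fold change of -4.57 with and -0.33 without the first library, Fasn -2.75 and 0.03, and Srebf1 -1.76 and 0.09. Srebf2 moved from -1.28 to 0.34, Sqle from -1.84 to 0.05 and Insig1 from -0.30 (0.25 with scaling by library size only) to 0.90. The estimate of 0.90 ± 0.39 for Insig1 (SE) did not pass the test (edgeR adjusted p = 1.00).

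Acat2 kept its sign in both fits. It stood at 33.1 and 9.78 CPM at 4 months and 3.31 and 4.47 CPM at 21 months in white matter, so the ages did not overlap with or without the first library. Its log2 fold change was -2.45 ± 0.66 (SE; edgeR adjusted p = 0.615) with and -1.34 ± 0.57 (SE; edgeR adjusted p = 1.00) without that library. With the first library included, 8 members were lower in both 21-month libraries than in both 4-month libraries, against 15.4% of all genes, and 1, Stard4, was higher, against 19.8%. Setting it aside, 11 of 33 were higher, against 35.7% of all genes, and 8 lower, against 33.6%.

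**Figure D5:**
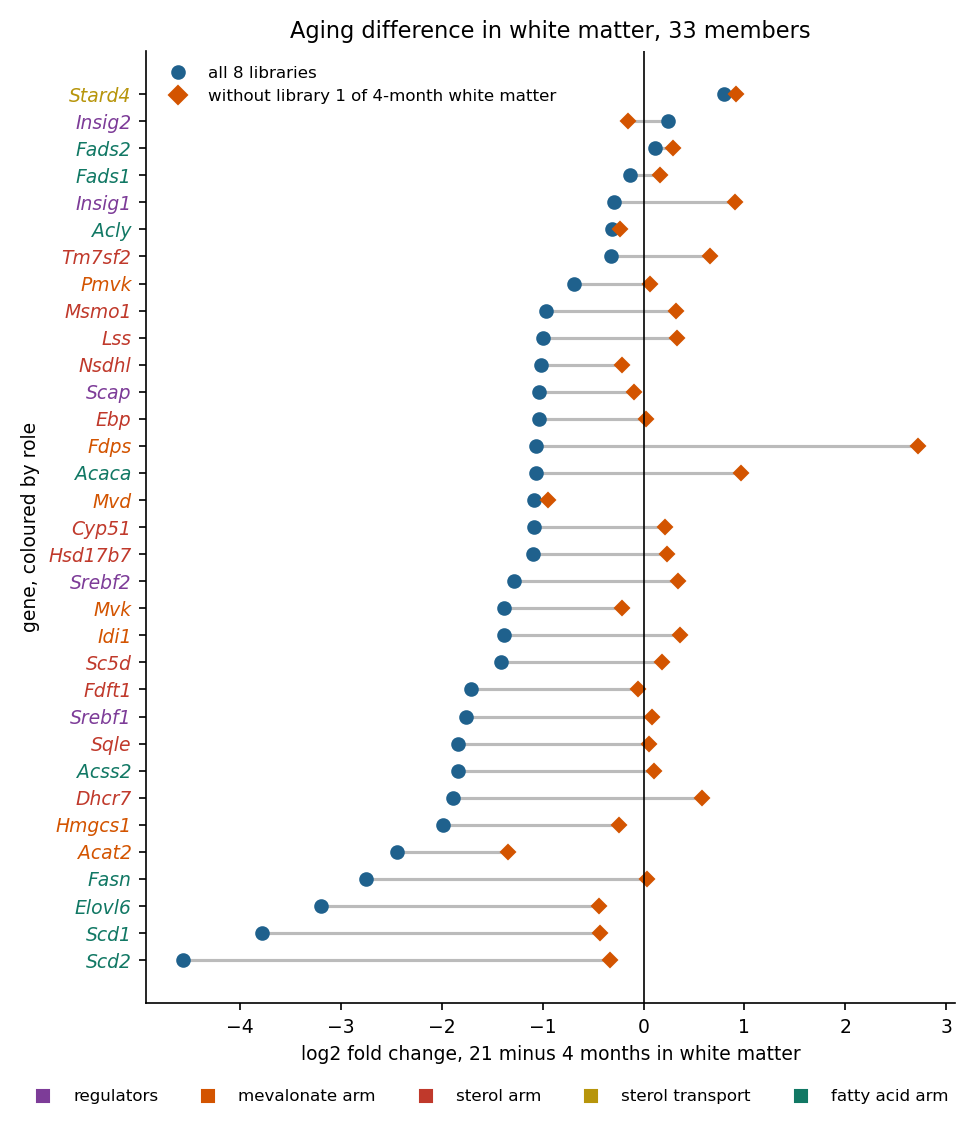
Log2 fold change of 21 minus 4 months in white matter for the 33 members, from the fit of all 8 libraries (circles) and from that without the first 4-month white matter library (diamonds), joined per gene and with names coloured by role. The circles run from -4.57 (Scd2) to 0.80 (Stard4), the diamonds gather around 0 (median 0.09), and the diamond of Fdps at 2.72 rests on 1 count in the remaining 4-month library.

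In grey matter 27 of 33 members (19 with scaling by library size only) lay below 0 between 4 and 21 months, with a median of -0.22 against -0.02 for all genes. In the fit of all 8 libraries none was called, as were 0% of genes, and 0 had an unadjusted p under 0.05 (0.733% of genes did). DESeq2 on all 8 libraries called 0 members and 0% of genes. Without the first 4-month white matter library 1 member had an unadjusted p under 0.05, and 1 did on the grey matter libraries alone. The share of all genes is not given for these 2 fits. In 10 members both 21-month libraries were lower than both 4-month libraries, against 17.3% of all genes. They were Scap, Acat2, Hmgcs1, Fdft1, Lss, Ebp, Fasn, Scd1, Acly and Fads1. Scd1 was at 14.8 CPM in both 4-month libraries and at 7.72 and 7.82 CPM in the 21-month libraries (log2 fold change -0.93 ± 1.28, SE, with all 8 libraries; edgeR adjusted p = 1.00). Mvk was the 1 member higher in both 21-month libraries, against 17.2% of all genes. Insig1 and Srebf1 differed by -0.14 and -0.12, and by 0.04 each with scaling by library size only. The 2 grey matter libraries of 4 months were themselves apart for Insig1, at 39.9 and 21.6 CPM, and for Dhcr7, at 42.6 and 14.1 CPM. Their oligodendrocyte markers summed to 834 and 209 CPM and their neutrophil markers to 5474 and 2788 CPM. The part of these cells in that spread was not tested.

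The aging change in white matter minus that in grey matter tests whether the regions differ in it. No member was called, as were 0% of genes, 1 member (Mvk) had an unadjusted p under 0.05 (2.8% of genes did), and DESeq2 called 0 members and 0.123% of genes. Without a filter on low counts edgeR called 2 members lower, Scd1 and Scd2, where it called 1.36% of genes lower. Without the second 4-month white matter library 10 members were called lower, where 5.83% of genes were. The members' median was -1.12 with all 8 libraries and 0.32 when the first 4-month white matter library was left out, with 5 and 26 of 33 above 0. For Insig1 the difference was -0.16 ± 0.85 (SE; 0.21 with scaling by library size only) and 1.03 ± 0.50 (SE) in the same fits, with edgeR adjusted p = 0.99995 in the second.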

How the data were processed

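RNA of CD11b-selected cells was compared between 4 groups of 2 libraries. The authors deposited estimated counts per gene, between 16.1% and 18.0% of whose values were not whole, and a normalised signal, per the file headers and values. Per the submitters' processing notes, DESeq2 and Partek were used, and their role and version are not stated. Aligner, build, annotation and strand use were not given in the sources used here. Near-identical or overlapping genes may share reads.

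Counts were rounded, filtered with filterByExpr and scaled by TMM. Group means were fitted with edgeR 4.0.16 (robust quasi-likelihood) in R 4.3.3, and p-values were Benjamini-Hochberg adjusted over all 16237 genes, with calls under 0.05. Standard errors derive from the F statistic. Fits without the first 4-month white matter library and on the libraries of one comparison alone stand beside it. DESeq2 1.42.0, limma 3.58.1 (pseudocount of 1 on the deposited normalised signal), other scalings, filters and left-out libraries were alternatives. Changes were simulated in 21-month white matter alone and read only in white against grey matter at 21 months. There the fit of all 8 libraries recovered almost none of the changed genes, so its lack of calls in that comparison says little. The 21-month and 7-library fits recovered most large changes there and made more false calls than their nominal rate. Recovery in the other comparisons was not simulated.

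The members and lists were chosen with earlier results of these data known. Levels in every library are given for Srebf1, Srebf2, Insig1, Scd2 and Sqle and for members called by edgeR with all 8 libraries, without the first 4-month white matter library or on one comparison's libraries, which was Insig1. Other members named were chosen after their values were seen. Some genes that 1 library or few counts decide are marked as such, and others are given as CPM alone. Samples numbered alike did not deviate together in every pair of groups (correlations from -0.14 to 0.42).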

Additional observations from a re-analysis of the deposited data

Results flagged for a closer look

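Mvk and Acat2 are listed because 2 groups went opposite ways in every library. For Mvk both 21-month libraries were below both 4-month libraries in white matter and above them in grey matter, with a difference between the aging changes of -3.46 ± 1.38 (SE; edgeR adjusted p = 0.99995). Its counts were 25 and 10 in white matter at 4 months, 9 and 9 at 21 months, 8 and 4 in grey matter at 4 months, and 9 and 27 at 21 months. Without the first 4-month white matter library the difference was -2.30.

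For Acat2 both white matter libraries were above both grey matter libraries at 4 months and below them at 21 months. Its counts were 91 and 39 in white and 41 and 31 in grey matter at 4 months. At 21 months they were 14 and 18 in white and 27 and 17 in grey matter, so the gap there rested on few counts. The difference between the aging changes was -2.11 ± 0.91 (SE; edgeR adjusted p = 0.99995), and it was -1.01 without that library.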

How the results depend on the processing

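The count of members called was 0 in each comparison with edgeR on all 8 libraries. At 21 months it was 1 on the 21-month libraries alone with edgeR and with DESeq2, and 4 and 1 there without the first and the second white matter library. White against grey matter at 4 months gave 11 members without a filter on low counts, 3 with DESeq2, and 0 to 24 with a library left out. Aging in white matter gave 6 without the filter, 3 with DESeq2, and 0 to 22 with a library left out. The difference between the aging changes gave 2 without the filter and 0 to 10 with a library left out. Without the filter edgeR called 3.04% of all genes higher at 4 months, 2.41% lower in white matter aging and 1.36% lower for the difference. DESeq2 on all 8 libraries called 2.86% higher at 4 months and 1.93% lower in white matter aging. On the 21-month libraries alone edgeR called 0.985% of genes higher and DESeq2 1.3%. Shares beside the highest counts with a library left out are given with each comparison above. The cause of the moves in the members' counts was not tested.

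With a library left out, values that changed sign ran as follows. At 21 months Srebf1 ran from -0.0502 to 0.418 and Scd1 from -0.331 to 2.38, and on the 21-month libraries alone without the second of white matter they were -0.0599 and -0.344. At 4 months Srebf2 ran from -0.0419 to 2.29. In white matter aging the members' median ran from -1.86 to 0.0851, Insig1 from -0.921 to 0.903, Srebf1 from -2.52 to 0.0851, Srebf2 from -2.003 to 0.340, Sqle from -2.61 to 0.0534 and Fasn from -3.62 to 0.0338. In grey matter aging Insig1 ran from -0.513 to 0.369, Srebf1 from -0.318 to 0.106 and Sqle from -0.455 to 0.445. For the difference between aging changes the median ran from -1.89 to 0.324, Insig1 from -0.778 to 1.03, Srebf1 from -2.40 to 0.196, Srebf2 from -1.81 to 0.522 and Scd2 from -5.11 to 0.0498.

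DESeq2 without the first 4-month white matter library, added after the data were seen, gave -0.0270 for Srebf2 at 4 months. In white matter aging it gave 0.0716 for the median and for Srebf1, 0.888 for Insig1, 0.326 for Srebf2, 0.0396 for Sqle and 0.0191 for Fasn. For the difference between aging changes it gave 0.294 for the median, 0.998 for Insig1, 0.168 for Srebf1, 0.492 for Srebf2 and 0.0217 for Scd2. Insig1 also reversed there with voom quality weights (0.0626), on the deposited normalised values (0.000714) and with library size only (0.210).

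Scaling by library size only moved the median of all genes from 0.02 to 0.29 in white matter aging and from -0.02 to 0.13 in grey matter aging. Insig1 was then 0.253 and 0.0428 in these comparisons, and Srebf1 was 0.0398 in grey matter. In grey matter aging 19 members, not 27, then lay below 0. With the replicate number as a block no member was called in any comparison, and Sqle in grey matter aging was -0.0207; the libraries share only a number. The summed level in 21-month grey matter, 647 CPM, was 713 CPM with library size only. Leaving the abundant transcripts CT010467.1 and AY036118 out of the library size gave 784 CPM there, 941 CPM in 4-month grey and 1116 CPM in 21-month white matter. Depth limits Fdps and Mvk, with as few as 1 and 4 counts in a library.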
